A study of Mus musculus with 6 samples.

Results

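Messenger RNA of 8 genes of ribosome production and RNA processing, *Rps20*, *Nol6*, *Mdn1*, *Rbm28*, *Polr1e*, *Rngtt*, *Lsm8* and *Snd1*, was compared between UN-SCC679 and UN-SCC680, a pair of mouse lines of lung squamous cell carcinoma. The genes were taken by Ensembl identifier from a count table of 55359 rows. A row was kept only where its position in the table is that of GRCm38 (mm10), which holds on chromosome 4 below 58.6 Mb and on chromosome 6 below 29.5 Mb, and 1144 rows lie in these windows. All 8 genes were found there, 5 on chromosome 4 and 3 on chromosome 6, and all 8 passed the filter on low counts.

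Both lines came from A/J mice that had been painted on the skin with the carcinogen N-nitroso-tris-chloroethylurea (NTCU), and each was grown from 1 tumor of 1 mouse. Both were then passed through immunodeficient mice and through A/J mice before the working lines were established. Polyadenylated RNA was sequenced in 3 libraries per line, with 3568293 to 4381885 counts per library, and no other treatment separates the lines. Nothing in the labels says whether the 3 libraries of a line came from separate cultures, so a p-value measures only the spread between these libraries. The squamous identity could not be checked from this table, because the rows of *Krt5*, *Krt14*, *Trp63* and *Sox2* lie outside the windows. Those of *Nkx2-1*, an adenocarcinoma marker, and *Ptprc*, a leukocyte marker, also lie outside the windows and were not read. *Col1a2*, a fibroblast marker, lies inside them, with 357130 counts over all libraries. Its log2 fold change was -3.63, UN-SCC680 over UN-SCC679. What this level says of the identity of the cells was not tested.

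Ribosomes are assembled in the nucleolus, where RNA polymerase I transcribes the precursor of the ribosomal RNAs and a large set of factors folds, cuts and joins it with ribosomal proteins. In the nucleus, newly made mRNA is capped at its start and spliced before it is exported. Growing tumor cells make many ribosomes, and these genes are expressed in nearly all cell types.

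Several steps are represented. *Rps20* encodes a protein of the small ribosomal subunit. *Nol6*, *Mdn1* and *Rbm28* encode nucleolar or nuclear assembly factors. *Polr1e* encodes a subunit of RNA polymerase I. *Rngtt* encodes the mRNA capping enzyme, *Lsm8* a protein of the ring that binds U6 small nuclear RNA, and *Snd1* a Tudor domain protein that binds and cleaves RNA.

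The promoter of a gene holds the sequence that its transcription starts from, and RefSeq (build GRCm38.p6) gave an entry for 6 of the 8 genes. The 250 bases before the start site are shown for the capping enzyme gene *Rngtt* and the U6 ring gene *Lsm8*, whose counts were higher in UN-SCC680, and for *Polr1e*, which had the most negative fold change of the 8. They are written on the strand of the gene, at chr4:33310061-33310310 (plus strand) for *Rngtt*, chr6:18848385-18848634 (plus strand) for *Lsm8* and chr4:45018359-45018608 (plus strand) for *Polr1e*. Capitals mark the GC box letters GGGCGG on either strand.
*Rngtt*: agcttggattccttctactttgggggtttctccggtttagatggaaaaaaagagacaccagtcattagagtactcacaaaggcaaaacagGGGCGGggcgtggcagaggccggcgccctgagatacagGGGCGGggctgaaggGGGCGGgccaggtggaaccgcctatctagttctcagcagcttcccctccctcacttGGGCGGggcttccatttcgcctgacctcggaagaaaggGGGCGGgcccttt
*Lsm8*: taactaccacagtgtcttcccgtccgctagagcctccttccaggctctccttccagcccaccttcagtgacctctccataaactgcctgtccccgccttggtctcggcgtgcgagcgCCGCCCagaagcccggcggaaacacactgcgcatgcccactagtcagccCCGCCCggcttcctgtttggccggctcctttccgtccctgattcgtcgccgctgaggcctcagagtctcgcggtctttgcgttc
*Polr1e*: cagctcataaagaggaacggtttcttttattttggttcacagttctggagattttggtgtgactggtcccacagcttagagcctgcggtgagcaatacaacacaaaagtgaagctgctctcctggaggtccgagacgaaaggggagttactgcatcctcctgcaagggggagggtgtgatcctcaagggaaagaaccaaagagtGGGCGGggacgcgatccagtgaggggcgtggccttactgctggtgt

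In these printed bases the GC box occurred 5 times for *Rngtt*, 2 times for *Lsm8* and 1 time for *Polr1e*. Over the whole 300 bases of an entry, which run 50 bases past the start site, all 6 genes held it, against 35.7% of 32851 promoters and 74.3% of the 191 tested genes of the windows that have an entry. The ETS core letters CCGGAA were found in 3 of the 6 (33.5% of the 191 genes), the E-box letters CACGTG in 1 of the 6, *Mdn1* (14.1%), and the TATA box letters TATAAA in 0 of the 6 (11.5%), on both strands. A match describes these letters in this window and is not a measured binding site.

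Per kilobase of the exon length in the table, *Rps20* was the most abundant of the 8 in both lines and *Snd1* the next. In UN-SCC679 the levels in normalized CPM (counts scaled to a common library size) per kilobase were 253 ± 5.25 for *Rps20*, 187 ± 2.36 for *Snd1*, 127 ± 1.73 for *Rbm28* and 117 ± 3.06 for *Nol6* (SD, n = 3 each). The lower levels were 94.5 ± 2.16 for *Lsm8*, 60.0 ± 1.5 for *Mdn1*, 43.3 ± 1.68 for *Polr1e* and 29.3 ± 0.778 for *Rngtt* (SD, n = 3 each). In this order no gene's 3 libraries overlapped with those of the next gene.
In UN-SCC680 the levels were 406 ± 8.95 for *Rps20*, 172 ± 1.87 for *Snd1*, 145 ± 7.07 for *Nol6*, 114 ± 2.77 for *Rbm28* and 114 ± 4.39 for *Lsm8* CPM per kilobase (SD, n = 3 each). *Mdn1* followed with 61.6 ± 1.13, *Rngtt* with 42.1 ± 2.81 and *Polr1e* with 36.6 ± 1.61 (SD, n = 3 each). The libraries of *Rbm28* and *Lsm8* overlapped, and those of the other neighbors in the order did not. *Nol6* stood above *Rbm28* in UN-SCC680 and below it in UN-SCC679, and *Rngtt* and *Polr1e* likewise changed places. The exon length of *Rps20* in the table is 4080 bases, 94.2% of the span of the gene, and those of *Lsm8* and *Nol6* are 58.5% and 52.3% of their spans. These lengths join the exons of all transcripts of a gene, so the order of levels holds on these lengths only.

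UN-SCC680 was compared with UN-SCC679 for these genes by edgeR's quasi-likelihood test over all 8987 rows that passed the filter. The p-values had Benjamini-Hochberg adjustment, with a threshold of 5e-05. The paper used this threshold for each line against normal lung cells, and its plot also set a limit on the fold change. No such limit was set here. *Rps20*, *Rngtt*, *Nol6* and *Lsm8* rose, by 1.61-, 1.44-, 1.24- and 1.203-fold, and *Mdn1*, *Snd1*, *Rbm28* and *Polr1e* did not pass. So 4 of 8 genes differed, where 30.4% of all tested rows and 53.9% of the 343 tested rows of the windows did. In UN-SCC680, 38.5% of the tested window rows were called higher and 15.5% lower, and 15.3% and 15.2% of all tested rows, beside 4 and 0 of the 8 genes. The median log2 fold change was 0.15 over the 8 genes, 0.23 over the window rows and -0.0028 over all tested rows. The share of genes called is thus near that of the window rows. Of the 8987 tested rows, all but the 343 lie outside the windows, where agreement with GRCm38 positions does not hold. Whether the counts of those rows belong to the genes they name was not tested. Values over all tested rows, here and below, therefore describe counted rows and not a checked background of genes. These are bulk libraries, in which fewer cells with an mRNA and less of it per cell cannot be told apart.
The scaling sets where the line of no change lies, and scaling from all rows also draws on the rows outside the windows. With scaling from the window rows alone, the median over all rows moved by -0.23 on the log2 scale. Then 2 of the 8 genes were called higher, *Rps20* and *Rngtt*, and 4 lower, *Mdn1*, *Polr1e*, *Snd1* and *Rbm28*. The share of calls that were higher in UN-SCC680 was 71.4% of window rows with scaling from all rows, and 45.3% with scaling from the window rows. For all rows it was 50.1% and 25.6%.

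**Figure D1:**
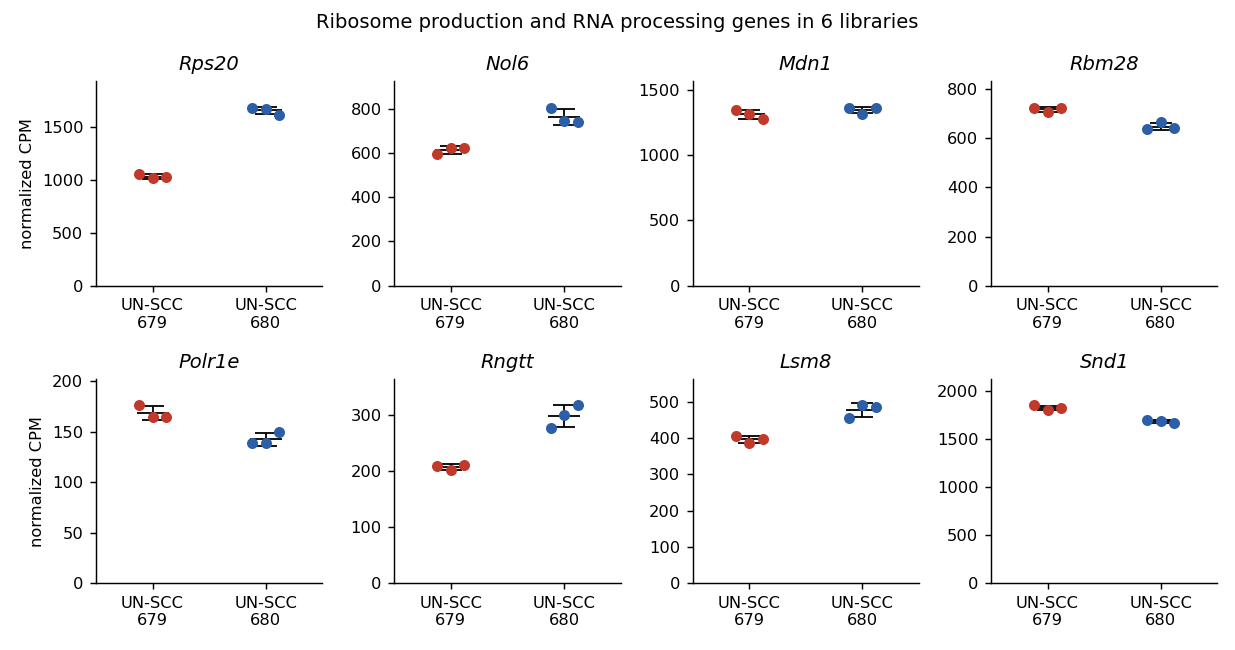
Normalized CPM (vertical axis, from 0) of each of the 8 genes in the 3 UN-SCC679 libraries (red points) and the 3 UN-SCC680 libraries (blue points), with black bars for the mean and SD. Points of the 2 lines overlap for *Mdn1* alone, and *Rps20* shows the widest separation, from 1015 to 1056 against 1615 to 1682.

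*Rps20* (ENSMUSG00000028234.7, chromosome 4, 3831334 to 3835665) encodes ribosomal protein S20 of the small subunit. It had 1056, 1015 and 1024 normalized CPM in the UN-SCC679 libraries and 1682, 1673 and 1615 in the UN-SCC680 libraries. Every UN-SCC680 library stood above every UN-SCC679 library. The log2 fold change was 0.68 (standard error 0.03, 95% interval 0.62 to 0.75, adjusted p = 3.58e-23 from edgeR). It stayed past the threshold with scaling from the window rows, at 0.45 (adjusted p = 1.27e-15 from edgeR). Ribosomal protein genes have many processed copies in the mouse genome, and how reads matching several places were counted is not given in the sources used here.

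*Nol6* (ENSMUSG00000028430.15, chromosome 4, 41114427 to 41124455) encodes a nucleolar factor of the machinery that processes the small subunit ribosomal RNA. Its normalized CPM was 594.7, 623.2 and 621.7 in UN-SCC679 and 804.3, 742.2 and 738.1 in UN-SCC680. The lines did not overlap, with the highest UN-SCC680 value in replicate 1. Its log2 fold change was 0.31 (standard error 0.04, 95% interval 0.24 to 0.39, adjusted p = 8.90e-10 from edgeR). With scaling from the window rows it was 0.08 (adjusted p = 0.0700 from edgeR), no longer past the threshold.

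*Mdn1* (ENSMUSG00000058006.13, chromosome 4, 32657119 to 32775217) encodes midasin, a very large ATPase that strips assembly factors from precursors of the large subunit. It had 1342, 1313 and 1277 normalized CPM in UN-SCC679 and 1361, 1317 and 1357 in UN-SCC680. The ranges of the lines overlapped. On the log2 scale the change was 0.04 (standard error 0.03, 95% interval -0.03 to 0.10, adjusted p = 0.314 from edgeR), so with this scaling a rise of over 1.07-fold lies outside the interval. The direction turned with scaling from the window rows, to -0.20 (adjusted p = 7.10e-07 from edgeR).

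*Rbm28* (ENSMUSG00000029701.16, chromosome 6, 29123575 to 29165005) encodes a nucleolar RNA-binding protein linked to assembly of the large subunit. Its normalized CPM was 723.8, 707.1 and 724.3 in UN-SCC679 and 636.3, 665.6 and 641.2 in UN-SCC680. All 3 UN-SCC680 libraries stood below all 3 of UN-SCC679. The fitted log2 fold change was -0.15 (standard error 0.04, 95% interval -0.22 to -0.08, adjusted p = 0.000322 from edgeR), short of the threshold of 5e-05. It passed with scaling by library size (-0.18) and with scaling from the window rows (-0.38).

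*Polr1e* (ENSMUSG00000028318.15, chromosome 4, 45018583 to 45036565) encodes a subunit of RNA polymerase I, which transcribes the ribosomal RNA precursor. It had 176.3, 165.1 and 164.7 normalized CPM in UN-SCC679 and 139.4, 138.9 and 150.0 in UN-SCC680. The lines did not overlap, with UN-SCC680 on the lower side. Its log2 fold change was -0.24 (standard error 0.06, 95% interval -0.35 to -0.13, adjusted p = 0.000286 from edgeR), which also missed the threshold. It was -0.47 with scaling from the window rows, past the threshold. With 586 counts in its lowest library, *Polr1e* had the fewest reads of the 8 genes, and its interval was the widest.

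*Rngtt* (ENSMUSG00000028274.18, chromosome 4, 33310311 to 33502614) encodes the enzyme that adds the guanosine cap to new mRNA, and its upstream bases with 5 GC box matches are printed above. Its normalized CPM was 209.6, 201.5 and 212.0 in UN-SCC679 and 277.7, 300.4 and 317.4 in UN-SCC680. The UN-SCC680 libraries were all higher, and spread more than those of UN-SCC679. The log2 fold change was 0.53 (standard error 0.05, 95% interval 0.43 to 0.62, adjusted p = 1.33e-12 from edgeR). With scaling from the window rows it was 0.29 and stayed past the threshold.

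*Lsm8* (ENSMUSG00000044155.12, chromosome 6, 18848578 to 18855750) belongs to the nuclear ring of Lsm proteins that holds the end of U6 RNA, a core part of the spliceosome. The gene name table lists it under an older symbol, *Naa38*. It had 405.5, 387.4 and 397.7 normalized CPM in UN-SCC679 and 456.1, 489.9 and 485.8 in UN-SCC680. The lines did not overlap. On the log2 scale the change was 0.27 (standard error 0.04, 95% interval 0.19 to 0.35, adjusted p = 1.97e-07 from edgeR). With scaling from the window rows it was 0.03 (adjusted p = 0.477 from edgeR), no longer past the threshold.

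*Snd1* (ENSMUSG00000001424.15, chromosome 6, 28475138 to 28935161) lies next to *Rbm28* among the tested rows. Its normalized CPM was 1846, 1801 and 1817 in UN-SCC679 and 1698, 1683 and 1662 in UN-SCC680. The lines did not overlap, with UN-SCC680 lower in 3 of 3 libraries. The fitted log2 difference was -0.12 (standard error 0.03, 95% interval -0.17 to -0.06, adjusted p = 0.000762 from edgeR), so the interval runs from 0.886- to 0.962-fold. It passed the threshold with scaling by library size (-0.14) and with scaling from the window rows (-0.35).

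**Figure D2:**
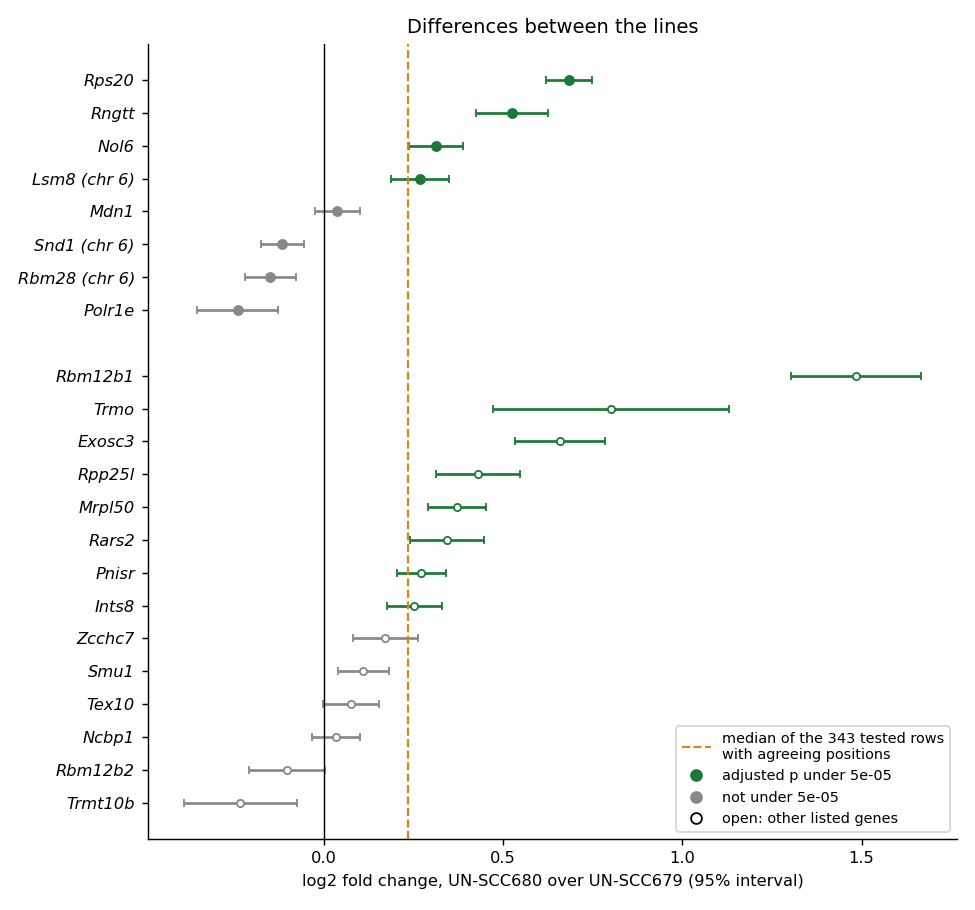
Log2 fold change of UN-SCC680 over UN-SCC679 (horizontal axis) with its 95% interval for the 8 genes (filled points) and the 14 other tested genes of the list (open points), green where the adjusted p was under 5e-05 and grey where it was not. The dashed line is the median of the 343 tested window rows, 0.23, and the genes fall on both sides of it.

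The libraries of the lines did not overlap for 7 of the 8 genes, where this held for 62.2% of all tested rows and 77.3% of those of the windows. At a threshold of 0.05 on the adjusted p, 7 of the 8 genes differed, 4 higher and 3 lower in UN-SCC680, beside 58.4% of all tested rows and 75.5% of the window rows. None of the 8 had an absolute log2 fold change over 1, and the largest, that of *Rps20*, exceeded the absolute change of 73.5% of the window rows. That of *Mdn1* exceeded 4.08% of them.

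Ratios of counts within a library do not depend on any scaling. *Mdn1*, the gene of the 8 nearest to no change, was used as the denominator for the other 7, and *Polr1e*, the most negative, for *Rps20* and *Nol6*. Both denominators were chosen after their values were seen, so the ratios are a description of the same differences, with no test. The *Rps20* to *Mdn1* ratio was 0.787, 0.773 and 0.802 in UN-SCC679 and 1.24, 1.27 and 1.19 in UN-SCC680, a mean 1.57 times as high. The *Rngtt* to *Mdn1* ratio was 0.159 ± 0.00658 and 0.222 ± 0.0159 (SD, n = 3 each), 1.40 times as high. The ratios of *Nol6* and *Lsm8* were 1.21 and 1.17 times as high in UN-SCC680, and those of *Snd1*, *Rbm28* and *Polr1e* were 0.900, 0.879 and 0.825 times as high.
The 7 ratios to *Mdn1* did not overlap between the lines, with 4 higher and 3 lower in UN-SCC680. The share of all rows whose ratio to *Mdn1* does not overlap was not computed. In normalized CPM the lines did not overlap for 62.2% of all tested rows and 77.3% of the window rows. The *Rps20* to *Polr1e* ratio went from 6.12 ± 0.116 to 11.6 ± 0.744 and the *Nol6* to *Polr1e* ratio from 3.64 ± 0.231 to 5.34 ± 0.423 (SD, n = 3 each).

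**Figure D3:**
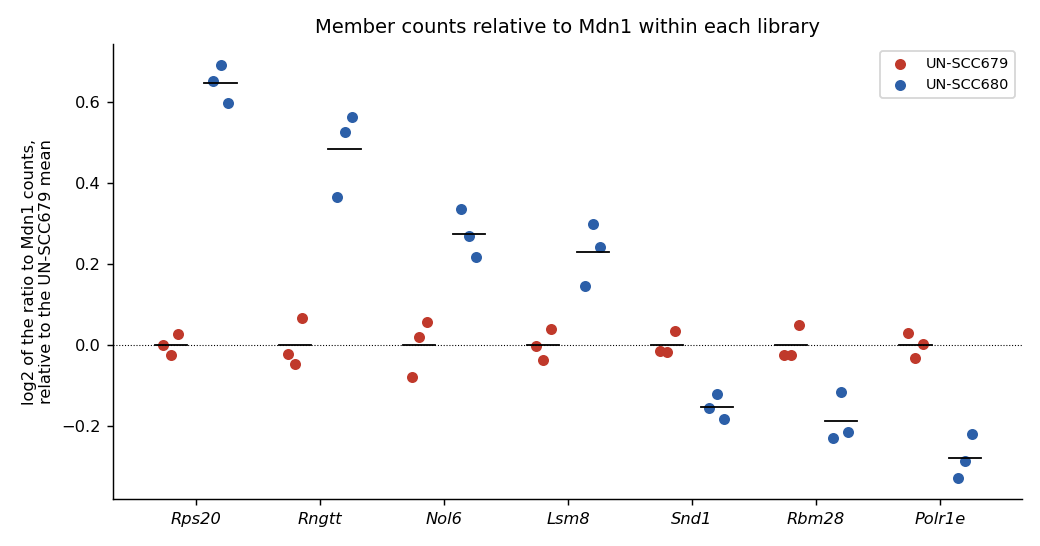
Log2 of the ratio of each gene's counts to the *Mdn1* counts of the same library (vertical axis), relative to the UN-SCC679 mean, for 7 genes, with red points for UN-SCC679, blue points for UN-SCC680 and black bars for the mean of each line. *Rps20*, *Rngtt*, *Nol6* and *Lsm8* lie above the UN-SCC679 points, and *Snd1*, *Rbm28* and *Polr1e* below them.

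The windows of chromosomes 4 and 6 differed in their fold changes. The 254 tested window rows of chromosome 4 had a median log2 fold change of 0.29, with 109 called higher and 29 lower. The 89 of chromosome 6 had a median of -0.017, with 23 called higher and 24 lower. *Rps20* and *Rngtt* lay above the chromosome 4 median, *Nol6* close to it, and *Mdn1* and *Polr1e* below it. On chromosome 6, *Lsm8* lay above that median and *Snd1* and *Rbm28* below it. The part of position in these values was not tested.

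**Figure D4:**
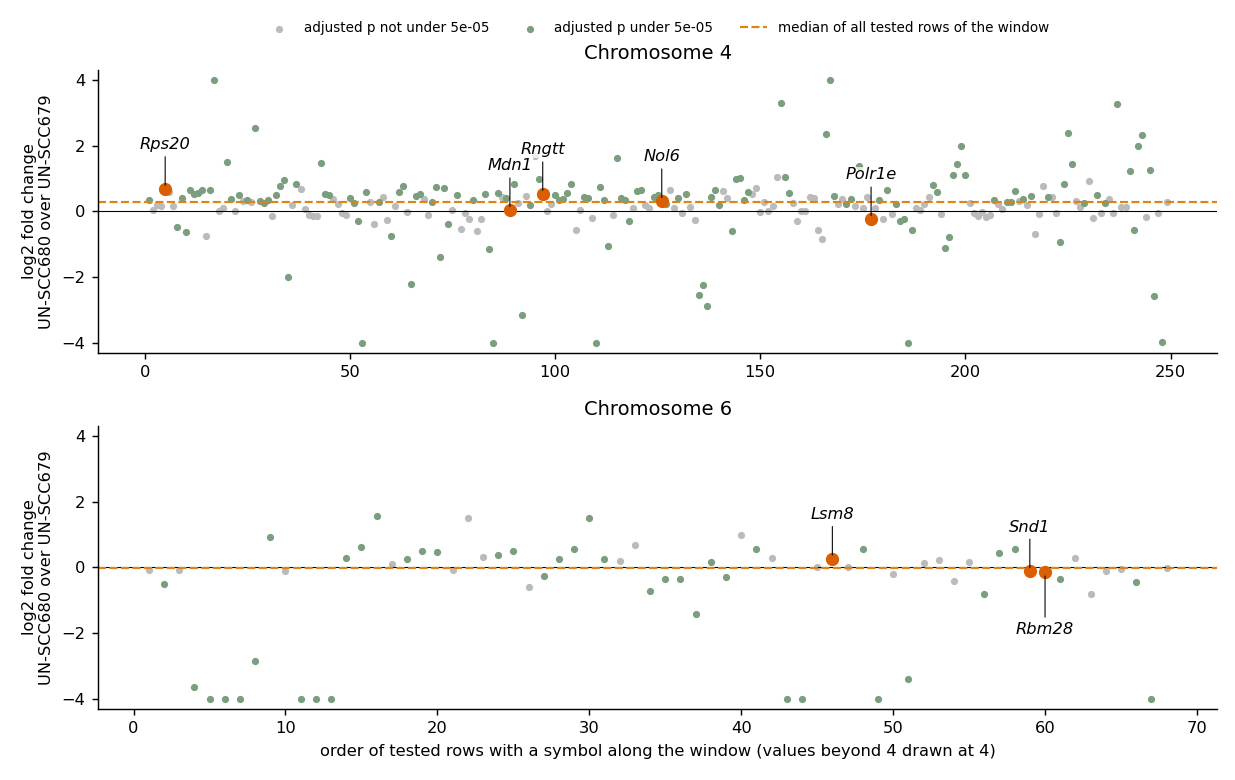
Log2 fold change of UN-SCC680 over UN-SCC679 (vertical axis) of the tested rows with a symbol, in their order along the windows of chromosomes 4 and 6 (horizontal axis), with the 8 genes in orange, other rows in green where the adjusted p was under 5e-05 and grey where it was not. The dashed lines are the medians, 0.29 for chromosome 4 and -0.017 for chromosome 6, and values beyond 4 are drawn at 4.

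Other genes of ribosome production, RNA processing and tRNA handling were taken from a list of 17, of which 16 lie in the windows and 14 passed the filter. Of these 14, 8 rose in UN-SCC680, 0 fell and 6 did not pass, where 53.9% of the tested window rows were called, 38.5% higher and 15.5% lower, and 30.4% of all tested rows. The median log2 fold change was 0.26 over the 14 genes, beside 0.23 over the window rows. All 14 lie on chromosome 4, whose 254 tested window rows had a median of 0.29, with 109 called higher and 29 lower. With scaling from the window rows, 2 were called higher, *Rbm12b1* and *Exosc3*, and 3 lower, *Ncbp1*, *Rbm12b2* and *Trmt10b*.
*Rbm12b1*, which encodes a protein with RNA recognition motifs, had 32.56, 32.06 and 26.57 normalized CPM in UN-SCC679 and 88.75, 84.47 and 83.14 in UN-SCC680. This difference, 1.48 on the log2 scale with an adjusted p of 6.36e-19 by edgeR, was the largest of the list. The ends of its row lie 1307 and 2191 bases inside those of the RefSeq gene, so part of the gene may not be counted. Its relative *Rbm12b2* had 201 ± 7.20 and 188 ± 10.3 (SD, n = 3 each), and the libraries of the lines overlapped. The ends of the *Rbm12b2* row lie 69 and 9375 bases inside those of its RefSeq gene. The 2 genes are related in sequence, and reads common to both may have been lost or split.

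*Exosc3*, a cap subunit of the RNA exosome, which trims and degrades RNA in the nucleus, had 97.68, 91.63 and 102.9 normalized CPM in UN-SCC679 and 145.6, 161.5 and 152.8 in UN-SCC680. The lines did not overlap, and the log2 fold change was 0.66 (adjusted p = 1.62e-12 from edgeR). It was also past the threshold with scaling from the window rows, at 0.43. *Exosc3* lies on the minus strand, and its row runs 22116 bases beyond the higher coordinate of its RefSeq gene, where the gene starts. An exon boundary of the row lies 12 bases from that coordinate. *Zcchc7*, a partner of the exosome in the nucleolus, had 277 ± 11 and 311 ± 11.4 CPM (SD, n = 3 each) and did not pass (log2 fold change 0.17, adjusted p = 0.00118 from edgeR).
*Rpp25l*, related to a subunit of RNase P and RNase MRP, rose by 0.43 on the log2 scale, from 121 ± 5.41 to 163 ± 6.97 CPM (SD, n = 3 each). *Mrpl50*, a protein of the mitochondrial large ribosomal subunit, rose by 0.37, and *Rars2*, the mitochondrial arginyl-tRNA synthetase, by 0.34. *Pnisr*, a protein related to splicing factors, rose by 0.27, and *Ints8*, a subunit of the Integrator complex that processes small nuclear RNAs, by 0.25. These 5 did not pass with scaling from the window rows.

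*Trmo*, a tRNA methyltransferase, had 32, 48 and 55 counts in UN-SCC679 and 91, 84 and 82 in UN-SCC680. At this depth the difference of 0.80 on the log2 scale only just passed (adjusted p = 4.70e-05 from edgeR). It did not pass with DESeq2 (adjusted p = 0.00164) or without replicate 1 of UN-SCC679 (0.64, adjusted p = 0.00117 from edgeR). *Trmo* lies on the minus strand, and its row stops 4120 bases short of the higher coordinate of its RefSeq gene, where the gene starts. *Ncbp1*, the large subunit of the nuclear complex that binds the cap made by *Rngtt*, had 931 ± 23.5 and 953 ± 15.5 CPM (SD, n = 3 each), with overlapping lines and a log2 fold change of 0.03 (95% interval -0.03 to 0.10). *Tex10*, of a complex that acts with *Mdn1* in large subunit maturation, had a log2 fold change of 0.07 (95% interval -0.0029 to 0.15). *Smu1* and *Trmt10b* had 0.11 and -0.23 and did not pass. *Esrp1* and *Srsf12* had 0 to 2 counts in every library and did not pass the filter on low counts, so no fold is given.

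The 3 tested rows of the windows whose pattern over the 6 libraries lay closest to that of *Rps20* were *Fbxl4*, *Rab2a* and *B4galt1*, by the Euclidean distance of log2 CPM after each row was centred. The distances were 0.0846, 0.0912 and 0.123, and the log2 fold changes were 0.70, 0.66 and 0.64. With 2 lines, such a distance mainly reads the size of the difference between them.

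**Figure D5:**
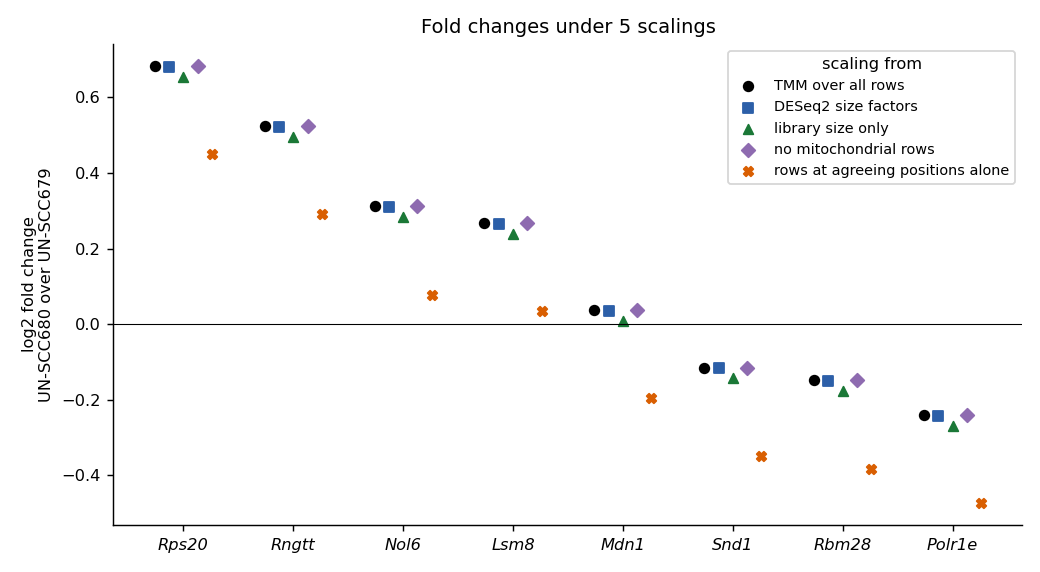
Log2 fold change of UN-SCC680 over UN-SCC679 (vertical axis) of the 8 genes under 5 scalings, one marker for each. With scaling from the rows at agreeing positions alone every value lies lower, and *Mdn1* goes from 0.04 to -0.20, while the order of the genes stays.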

How the data were processed

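For 3 libraries of each line, the authors deposited whole-number read counts of each Ensembl gene, not normalized, beside the positions of its exons and its length. The labels name featureCounts and mm10, whereas the paper's methods name Trimmomatic, Kallisto and DESeq2. The kit keeps strand, but the annotation release and the strand setting of the counting are not given in the sources used here. Most rows of the table lie at positions that are not those of GRCm38, so single genes were read only from the windows on chromosomes 4 and 6. There, 601 of 624 rows with a RefSeq gene of the same name lay within 1000 bases of it at one of their ends, and 425 within 10. Of the 8 genes, 7 had an exon boundary within 10 bases of the RefSeq gene and *Polr1e* one at 26. No exon base of the 8 genes was shared with another row except 68 bases of *Rps20* that hold a small nucleolar RNA, with 0 counts. Symbols were matched to 31021 of 55359 identifiers, and 0 columns of values were left unused. Mitochondrial rows took 18.0% to 18.9% of a library.

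Rows were filtered with filterByExpr, scaled by TMM (factors 0.985 to 1.01) and tested with edgeR's quasi-likelihood test without covariates, UN-SCC680 against UN-SCC679, with an adjusted p under 5e-05. The standard error was derived from the F statistic, and the common coefficient of variation was 3.12%. Normalized CPM are CPM of the TMM-scaled library size. The test was run first on simulated counts of the same 8987 rows. Alternatives were DESeq2, limma-voom, other scalings, filters and thresholds, a block for the replicate number, and each library left out in turn. The members and lists were chosen with earlier results of these data known, and named genes were the 8 members, a list of 17 others (1 further listed gene is not reported here) and, by rule, their tested neighbors and the 3 rows closest to the member with the largest change. Between libraries of 1 line the counts varied beyond sampling noise, with a chi-square of 1.11 to 1.63 per degree of freedom. The tests ran in edgeR 4.0.16, DESeq2 1.42.0 and limma 3.58.1 under R 4.3.3, and the ratios and plots in SciPy 1.17.1, NumPy 2.4.6, matplotlib 3.10.9 and pandas 2.3.3 under Python 3.11.15.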

Additional observations from a re-analysis of the deposited data

How the results depend on the processing

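With DESeq2, limma-voom, DESeq2 size factors in the edgeR fit, removal of mitochondrial rows, both other low-count filters and each of the 6 libraries left out, the replicate block included, none of the 8 genes changed direction or crossed the threshold. Of 136 values of the 8 genes under alternatives, 121 stayed so. Scaling from the window rows lowers every value by construction. It gave 0.078 for *Nol6* and 0.034 for *Lsm8*, no longer past the threshold, and -0.47 for *Polr1e*, -0.35 for *Snd1* and -0.38 for *Rbm28*, now past it. *Mdn1* reversed to -0.20, and in the list *Ncbp1* to -0.20, *Tex10* to -0.16, *Smu1* to -0.12 and *Zcchc7* to -0.062. Library size alone gave -0.14 for *Snd1* and -0.18 for *Rbm28*, now past the threshold.

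At an adjusted p under 0.05, *Polr1e* (-0.24), *Snd1* (-0.12) and *Rbm28* (-0.15) passed. A further limit of 1 on the absolute log2 fold change left out *Rps20* (0.68), *Rngtt* (0.53), *Nol6* (0.31) and *Lsm8* (0.27). The 4 called genes of the 8 became 7 at 0.05 and 0 with that limit. In the list, 8 genes were called, all higher. Under scaling from the window rows 5 were called, of which 2 were among the 8 and 3 were newly called lower, and 1 was called with that limit. The 185 called window rows became 56 with that limit, and the 2736 called rows became 1024 with it and 5248 at 0.05. The changes at 0.05 and with that limit follow from the looser or stricter rule.

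With each library left out in turn, log2 fold changes ran from 0.67 to 0.71 for *Rps20*, 0.28 to 0.34 for *Nol6*, 0.02 to 0.06 for *Mdn1*, -0.27 to -0.21 for *Polr1e*, -0.12 to -0.098 for *Snd1*, 0.25 to 0.31 for *Lsm8*, -0.16 to -0.13 for *Rbm28* and 0.49 to 0.58 for *Rngtt*. The calls were 4 of 8 in each of these fits, 7 to 8 in the list, 154 to 184 in the windows and 2226 to 2611 over all rows. *Trmo* lost its call in 5 of the 6. The replicate block gave 4 of the 8 genes, 7 of the list, 173 window rows and 2523 rows. The deviations of libraries with the same number correlated at -0.038, -0.00052 and -0.022, so the numbers were not read as pairs. The depth, 3568293 to 4381885 counts per library, limits the precision of genes with few reads, such as *Trmo*.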

Other observations

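The nearest tested rows with a symbol on either side of the 8 genes are given as values. *Rps20* lies between *Gm11805*, with a log2 fold change of 0.15, and *Plag1*, with 0.59 and 7.30 normalized CPM in UN-SCC679, neither past the threshold. *Nol6* lies between *Nfx1* (0.50) and *Ube2r2* (0.23), both higher in UN-SCC680, and *Mdn1*, which did not pass, between *Casp8ap2* (0.41) and *Lyrm2* (0.83), both higher. *Rngtt* lies between *Pnrc1*, which was higher by 0.997 on the log2 scale, and *Gm12751*, with 0.0022. *Polr1e* lies between *1700055D18Rik* (0.42) and *Fbxo10* (0.11), neither past the threshold. On chromosome 6, *Lsm8* lies between *Gm5874* (0.03) and *Ing3* (0.03), neither past it. *Snd1* and *Rbm28* lie side by side between *Arf5*, which was higher (0.56), and *Impdh1*, a rate-limiting enzyme of guanine nucleotide synthesis, which was lower in UN-SCC680 (-0.34, from 433 to 343 normalized CPM, adjusted p = 6.33e-09 from edgeR).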
